A study of Homo sapiens with 3 samples.

Results

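The genes described here are 45 transcripts of the ATF4 amino acid response and of the unfolded protein response, out of 19775 genes read on the arrays. They were taken as a named list and split into an ATF4 arm of 28 genes and a chaperone arm of 17 genes. Each gene was read by the probe set, naming 1 gene symbol in the platform annotation, whose mean log2 signal over the arrays was highest. In this way 44 of the 45 were read. SYVN1, an E3 ubiquitin ligase of ER-associated degradation, had no probe set naming it alone and is not analysed here.

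PANC-1, an established cell line from a human pancreatic ductal adenocarcinoma, was the parent of the 3 stable lines arrayed. One line expressed wild-type JMJD3, one expressed a mutant JMJD3 whose mutation the labels do not give, and the control line carried the MSCV-bank vector, a blank control vector per the labels. JMJD3, the protein of KDM6B, is a histone H3 demethylase. The labels record no treatment beyond the stable expression and do not say whether a line is a clone or a pool. With 1 array per line there is no replicate to check a difference against, differences are given untested, and the number of arrays limits the precision. The JMJD3 construct and the line that carries it cannot be told apart.

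When amino acids are short or unfolded proteins build up in the endoplasmic reticulum (ER), kinases phosphorylate the initiation factor eIF2alpha, which lowers general translation while translation of the transcription factor ATF4 rises. ATF4 pairs with C/EBP proteins and raises genes for amino acid synthesis, amino acid uptake and tRNA charging. In parallel the ER sensors IRE1alpha, the product of ERN1, and ATF6 raise the ER chaperones and the machinery that removes misfolded proteins. Much of this control is translational or acts on proteins, and the arrays measured transcript levels.

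The promoters of several members carry the short elements through which these factors act, and they are printed for the members that differed most between lines. The RefSeq promoter table (GRCh38.p14) held 40 of the 45 members, and the 250 bases before each start site were searched on both strands. A gene was counted if any of its windows held the element. The C/EBP-ATF element, TGATGNAAN, was present for 6 of the 24 ATF4 arm genes with a promoter (CEBPG, CHAC1, ASNS, SLC1A5, GARS1 and AARS1). In the chaperone arm it was present for 1 of 16 (HERPUD1), against 3.87% of all 27305 genes of the promoter table. The ER stress element is CCAAT and CCACG with 9 bases of any kind between them. It was present for 6 of the 16 chaperone arm genes (XBP1, HSPA5, HSP90B1, CALR, CANX and PDIA6). In the ATF4 arm it was present for 0 of 24, against 0.0916% of all genes. TGACGTGG, the unfolded protein response element, was present for no member, against 0.78% of all genes. A match is a run of letters and shows no binding.

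In the sequences below, read 5′ to 3′ along each gene's strand, capitals mark the fixed letters of the element, whichever strand holds it. They are the members with an element and the largest differences between lines. The ASNS stretch is chr7:97872409-97872536 on the minus strand, with the element 68 to 60 bases before the start (positions -68 to -60), where the nutrient-sensing response element of this gene is known to lie. The CEBPG stretch is chr19:33374061-33374089 on the plus strand (element at -42 to -34). The GARS1 stretch is chr7:30594834-30594862 on the plus strand, with the element on the opposite strand at -34 to -26. The SLC1A5 stretch is chr19:46784843-46784971 on the minus strand, before the listed start that lies farthest downstream (element at -97 to -89).
ASNS: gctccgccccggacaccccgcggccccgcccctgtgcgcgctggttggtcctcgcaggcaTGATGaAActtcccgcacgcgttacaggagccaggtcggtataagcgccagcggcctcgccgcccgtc
CEBPG: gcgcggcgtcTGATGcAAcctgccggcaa
GARS1: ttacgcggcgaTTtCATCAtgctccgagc
SLC1A5: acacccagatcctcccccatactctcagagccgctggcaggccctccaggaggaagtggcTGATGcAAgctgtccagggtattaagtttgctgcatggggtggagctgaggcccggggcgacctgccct

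For the chaperone arm, the CALR stretch is chr19:12938359-12938462 on the plus strand, with the ER stress element on the opposite strand at -225 to -207. The HSP90B1 stretch is chr12:103930160-103930399 on the plus strand and holds the element in both directions, at -194 to -176 and, on the opposite strand, at -89 to -71.
CALR: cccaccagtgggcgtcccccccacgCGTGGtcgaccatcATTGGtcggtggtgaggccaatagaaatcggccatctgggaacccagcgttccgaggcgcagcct
HSP90B1: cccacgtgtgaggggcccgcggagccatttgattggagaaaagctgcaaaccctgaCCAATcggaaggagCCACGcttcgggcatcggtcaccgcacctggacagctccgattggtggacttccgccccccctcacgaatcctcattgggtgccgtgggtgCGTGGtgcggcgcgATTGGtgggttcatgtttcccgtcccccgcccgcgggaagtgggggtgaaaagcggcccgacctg

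The arrays had median log2 signals of 5.48 with wild-type JMJD3, 5.49 with mutant JMJD3 and 5.50 in control, and the 3 values were identical for 21.0% of the 54613 probe sets. Of 5 KDM6B probe sets, the one that differed most read 6.73 with wild-type JMJD3, 6.45 with mutant JMJD3 and 5.53 in control, and the brightest read 7.66, 7.65 and 7.60 in that order. Among cell type markers, 4 of 5 simple epithelium genes lay over the floor, set at the pooled median of log2 5.48, on every array, while CDH1, the E-cadherin gene, lay under it at 4.62. The markers read for acinar cells (3 genes) and leukocytes (4 genes) lay under the floor, as did 2 of 3 endothelial markers, the exception being PECAM1 (6.28, 6.27 and 6.28). Of 5 fibroblast markers 3 lay over it, led by COL1A1 (10.69 with wild-type JMJD3, 10.38 with mutant JMJD3 and 10.16 in control), and the summed linear signal of the 5 was 1916 with wild-type JMJD3, 1488 with mutant JMJD3 and 1337 in control. The epithelium genes had no common direction. KRT8 read 11.97 with wild-type JMJD3, 10.67 with mutant JMJD3 and 11.76 in control, and KRT18 read 13.47, 12.83 and 13.40 in the same order, both lowest with mutant JMJD3. KRT19 stood 2.45 with wild-type and 2.18 with mutant JMJD3 above its control log2 signal of 5.55. EPCAM read 5.83 with wild-type JMJD3, 7.07 with mutant JMJD3 and 6.17 in control, so both were higher in the mutant line than in control. Their summed linear signal, 15696 with wild-type JMJD3, 9282 with mutant JMJD3 and 14421 in control, is mostly that of KRT18 and KRT8. The part of these markers in the results was not tested, and in such bulk RNA fewer cells of a type and less RNA per cell cannot be told apart.

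All values below are log2 signals of 1 probe set and cannot be set against those of another gene. Signals under the floor were raised to it. Differences are log2 signals of the first-named array minus the second, taken on the floored values, and each fold is the linear form of such a difference. A comparison includes a gene only if one of its arrays or both exceeded the floor. Of the 44 genes, 43 were over the floor in every array. ALDH1L2 was over it with mutant JMJD3 alone, so it was measured there because it was high.

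The ATF4 arm members split by function with mutant JMJD3, which the other ATF4 targets described below did not. The members and lists were chosen with earlier results of these data known, so the split is a description and was not tested. Against control, all 7 enzymes of amino acid synthesis and one-carbon metabolism were higher, led by asparagine synthetase (ASNS, 4.63-fold), where 5834 of all 12707 measured genes lay above 0, and 4 of the 5 amino acid transporters were lower, by up to 1.68-fold, where 5241 of all measured genes lay below 0. Over the arm, 2 of 28 genes were higher by 2-fold or more, against 2.98% of all measured genes, and 0 were lower, against 0.535%. By 1.5-fold, 9 of 28 were higher, against 9.51% (ATF4, CEBPB, CEBPG, NUPR1, CHAC1, ASNS, PHGDH, ALDH1L2 and SARS1), and 2 were lower, against 3.38% (SLC3A2 and SLC7A1). ALDH1L2 is counted in the 7, the 2 and the 9. It was over the floor with mutant JMJD3 alone, so it could only come out higher there. Also among the 7, SHMT2 differed by 0.07 and PSAT1 by 0.21 on the log2 scale, and the other PSAT1 probe set by -0.07. The arm's median log2 difference was 0.14, against 0.00 over all genes.

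With wild-type JMJD3 the ATF4 arm stood slightly above control, and no member differed by 2-fold. Of 27 measured genes, 0 were higher by 2-fold, against 0.953% of all 12697 measured genes, and 0 were lower, against 1.31%. By 1.5-fold, 3 were higher (ASNS, TRIB3 and NUPR1), against 7.15%, and 0 were lower, against 9.08%. The median log2 difference was 0.30, against 0.05 over all genes, and 19 of the 27 were above 0, against 6907 of 12697 genes. Both comparisons share the control array, so a low or high control value moves them together.

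Among the transcription factors, ATF4 itself, the central factor of the response, read 12.57 with wild-type JMJD3, 12.87 with mutant JMJD3 and 12.25 in control. CEBPB, a C/EBP partner of ATF4, read 11.81, 12.12 and 11.44 in the same order of lines. Both were lowest in control and highest with mutant JMJD3, 1.54-fold over control for ATF4 and 1.60-fold for CEBPB.

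CEBPG, a C/EBP factor that forms dimers with ATF4 and whose element is printed above, read 7.54 with wild-type JMJD3, 9.11 with mutant JMJD3 and 8.12 in control. It was thus 1.99-fold over control with mutant JMJD3, and with wild-type JMJD3 its log2 difference from control was -0.58, just short of the 1.5-fold mark. Its other probe set did not show this and read 8.30, 8.33 and 8.12. ATF5, an ATF4-related factor, read 7.65 with wild-type JMJD3, 7.09 with mutant JMJD3 and 7.32 in control, with the mutant lowest.

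DDIT3, which encodes the stress factor CHOP, read 9.02 on all 3 arrays. Such exact ties held for 21.0% of all probe sets and do not show that a transcript was equal. NUPR1, a small chromatin protein induced by stress, read 9.69 with wild-type JMJD3, 9.38 with mutant JMJD3 and 8.79 in control. TRIB3, a pseudokinase that dampens ATF4 activity, read 9.65, 9.07 and 8.71 in the same order. Both were lowest in control and highest with wild-type JMJD3, by 1.87-fold for NUPR1 and 1.92-fold for TRIB3. With mutant JMJD3 the log2 differences from control were 0.59 for NUPR1 and 0.36 for TRIB3.

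PPP1R15A, the phosphatase subunit GADD34 that reverses eIF2alpha phosphorylation, read 7.98 with wild-type JMJD3, 7.13 with mutant JMJD3 and 7.67 in control. Its other probe set had the same order (7.46, 6.09 and 6.92). PPP1R15A was 1.80-fold higher in the wild-type JMJD3 line than in the mutant line.

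The 4 effectors that restrain growth or alter redox state and lipoprotein uptake differed by at most 1.55-fold. DDIT4, an inhibitor of mTORC1, read 12.04 with wild-type JMJD3, 12.00 with mutant JMJD3 and 12.11 in control. SESN2, a leucine sensor upstream of mTORC1, read 7.29, 7.02 and 7.15, and VLDLR, a lipoprotein receptor, read 8.49, 7.97 and 8.15 in the same order. CHAC1, which degrades glutathione, read 6.70 with wild-type JMJD3, 7.06 with mutant JMJD3 and 6.43 in control. CHAC1 was the exception among them in being highest with mutant JMJD3, while the other 3 had the mutant as the lowest line at the chosen probe sets. The other SESN2 probe set had control lowest (7.36 with wild-type JMJD3, 6.95 with mutant JMJD3 and 6.93 in control).

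ASNS, which makes asparagine from aspartate and glutamine, read 9.87 with wild-type JMJD3, 11.09 with mutant JMJD3 and 8.88 in control. Over control it was 1.99-fold higher with wild-type and 4.63-fold higher with mutant JMJD3, the widest range of any member over the floor in all lines. The reading came from a probe set whose suffix (_s_at) marks probes shared with other transcripts, and the other ASNS probe set lay under the floor (3.41, 3.81 and 3.41).

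The serine pathway starts with PHGDH, which read 9.88 with wild-type JMJD3, 10.49 with mutant JMJD3 and 9.88 in control. PSAT1, the aminotransferase of the next step, read 11.63, 12.17 and 11.96, and PSPH, the phosphatase of the last step, read 11.03, 10.99 and 10.65 in the same order. Against control the mutant line was higher for all 3, by 1.53-fold for PHGDH, 1.16-fold for PSAT1 and 1.27-fold for PSPH. The other PSAT1 probe set had control highest (8.53 with wild-type JMJD3, 8.57 with mutant JMJD3 and 8.64 in control). The wild-type line had the same reading as control for PHGDH, a tie that does not show equal transcript levels. It was 1.26-fold lower than control for PSAT1 and 1.30-fold higher for PSPH.

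In mitochondrial one-carbon metabolism, MTHFD2, a folate dehydrogenase, read 12.05 with wild-type JMJD3, 12.47 with mutant JMJD3 and 11.96 in control. SHMT2, which splits serine into glycine, read 11.98, 11.92 and 11.85 in that order. ALDH1L2, a formyltetrahydrofolate dehydrogenase, read 4.57 with wild-type JMJD3, 7.29 with mutant JMJD3 and 5.37 in control. It was at least 3.51-fold higher with mutant JMJD3 than in either other line, where it lay under the floor, while its other 2 probe sets lay under the floor in every line. MTHFD2 was 1.42-fold over control with mutant JMJD3 and SHMT2 1.05-fold. The median of the 7 enzymes was 0.51 with mutant JMJD3 against control. With wild-type JMJD3 it was 0.11 over the 6 measured. ALDH1L2 is among the 7 and not among the 6, so these medians are over different genes.

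**Figure D1:**
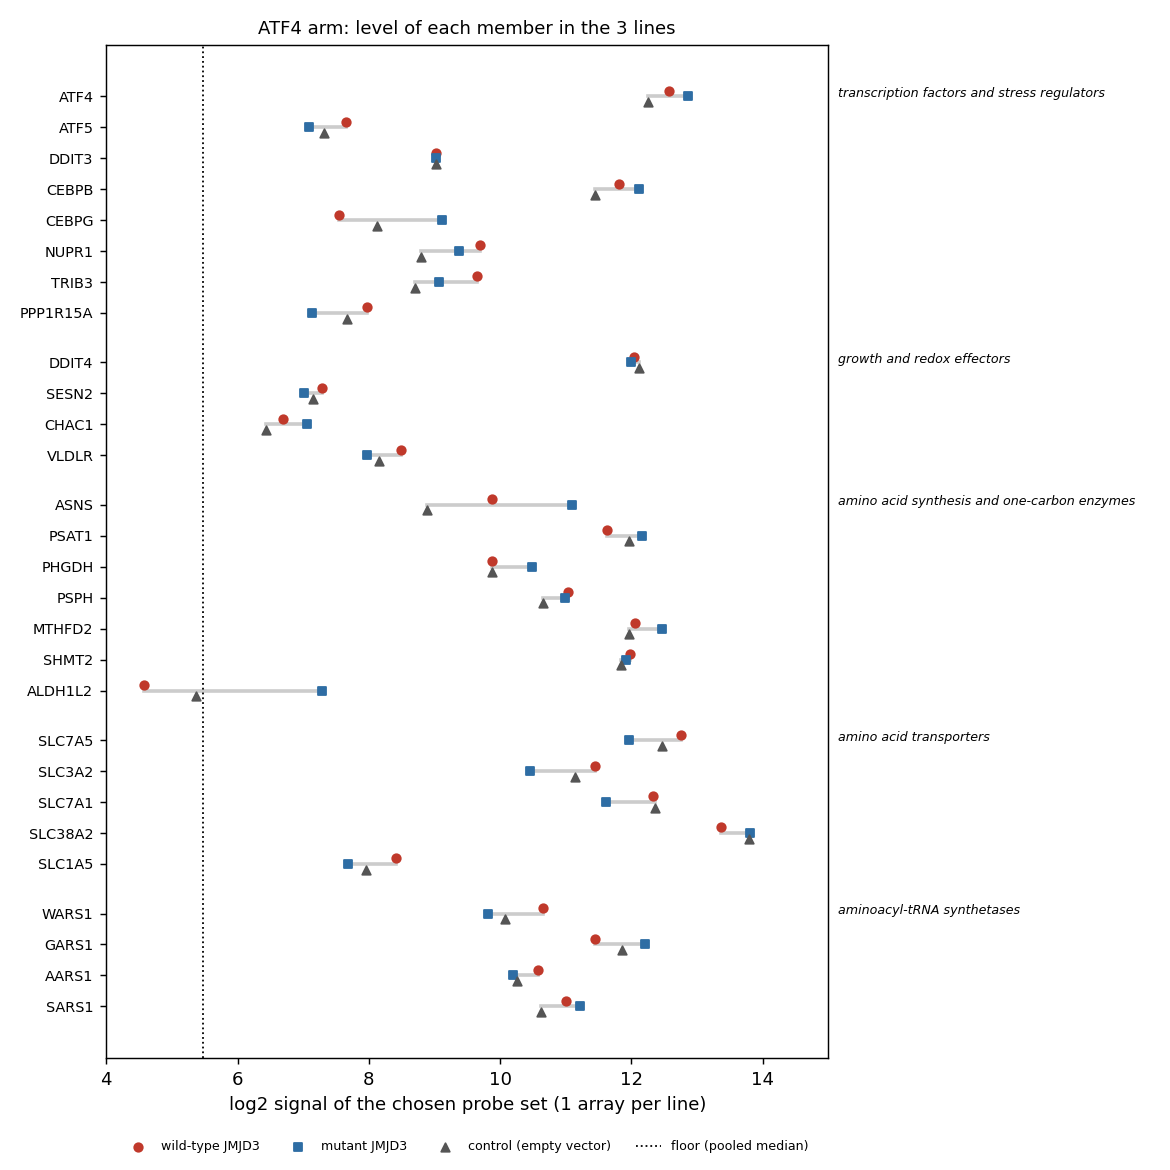
Log2 signal of the 28 ATF4 arm genes (rows, grouped by role) in the wild-type JMJD3, mutant JMJD3 and control arrays, with 1 array per line and the floor at 5.48 dotted. The mutant squares lie right of the control triangles for all 7 enzymes, most of all for ASNS (11.09 against 8.88), and left of them for 4 of the 5 transporters.

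The transporters ran the other way. SLC7A5, the light chain of the LAT1 exchanger for large neutral amino acids, read 12.76 with wild-type JMJD3, 11.97 with mutant JMJD3 and 12.47 in control. SLC3A2, its heavy chain, read 11.44, 10.45 and 11.14 in that order. Both chains of the exchanger had the same order of lines, with mutant JMJD3 lowest, 1.41-fold under control for SLC7A5 and 1.61-fold for SLC3A2.

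SLC7A1, a carrier of cationic amino acids, read 12.33 with wild-type JMJD3, 11.61 with mutant JMJD3 and 12.36 in control. SLC1A5, the glutamine carrier ASCT2, read 8.41, 7.69 and 7.96 in the same order. The mutant line was the lowest for both, by 1.68-fold against control for SLC7A1 and 1.21-fold for SLC1A5. The other SLC7A1 probe sets over the floor also had the mutant lowest (8.83, 8.56 and 9.59 for the brighter, 7.43, 6.92 and 7.69 for the dimmer). SLC38A2, the amino acid-regulated carrier SNAT2, was the exception and read 13.37 with wild-type JMJD3, 13.81 with mutant JMJD3 and 13.80 in control. The median of the 5 transporters was -0.50 with mutant JMJD3 and 0.29 with wild-type JMJD3, each against control. Without shared probe sets only SLC7A1 and SLC1A5 were left, with medians of -0.65 for mutant JMJD3 and -0.15 for wild-type JMJD3.

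The tRNA synthetases, which charge tRNAs with their amino acids, had no common direction. WARS1, for tryptophan, read 10.65 with wild-type JMJD3, 9.81 with mutant JMJD3 and 10.08 in control, and AARS1, for alanine, read 10.58, 10.20 and 10.26. GARS1, for glycine, read 11.44, 12.21 and 11.86 in the same order, and SARS1, for serine, 11.00, 11.22 and 10.62. WARS1 and AARS1 were highest with wild-type JMJD3, while GARS1 and SARS1 were highest with mutant JMJD3. The largest fold among them was 1.79, for WARS1 with wild-type over mutant JMJD3.

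The JMJD3 lines were also set against each other. This comparison uses the same mutant array as that of mutant JMJD3 against control, so a low or high mutant value appears in both with opposite sign. With wild-type JMJD3, 0 of 28 genes were higher than with mutant JMJD3 by 2-fold, against 2.61% of all 12829 measured genes, and 3 were lower, against 6.2%. These were ALDH1L2 (at least 3.51-fold), CEBPG (2.97-fold) and ASNS (2.33-fold). ALDH1L2 was measured only through the mutant array, so it could only be lower with wild-type JMJD3. By 1.5-fold, 6 were higher, against 11.3%, and 5 lower, against 15.9%. The 6 were PPP1R15A, WARS1 and the transporters SLC3A2 (1.99-fold), SLC7A5 (1.73-fold), SLC7A1 (1.65-fold) and SLC1A5 (1.65-fold). The median of the transporters was 0.72, that of the enzymes -0.54, and that of the whole arm 0.04, against 0.00 over all genes.

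**Figure D2:**
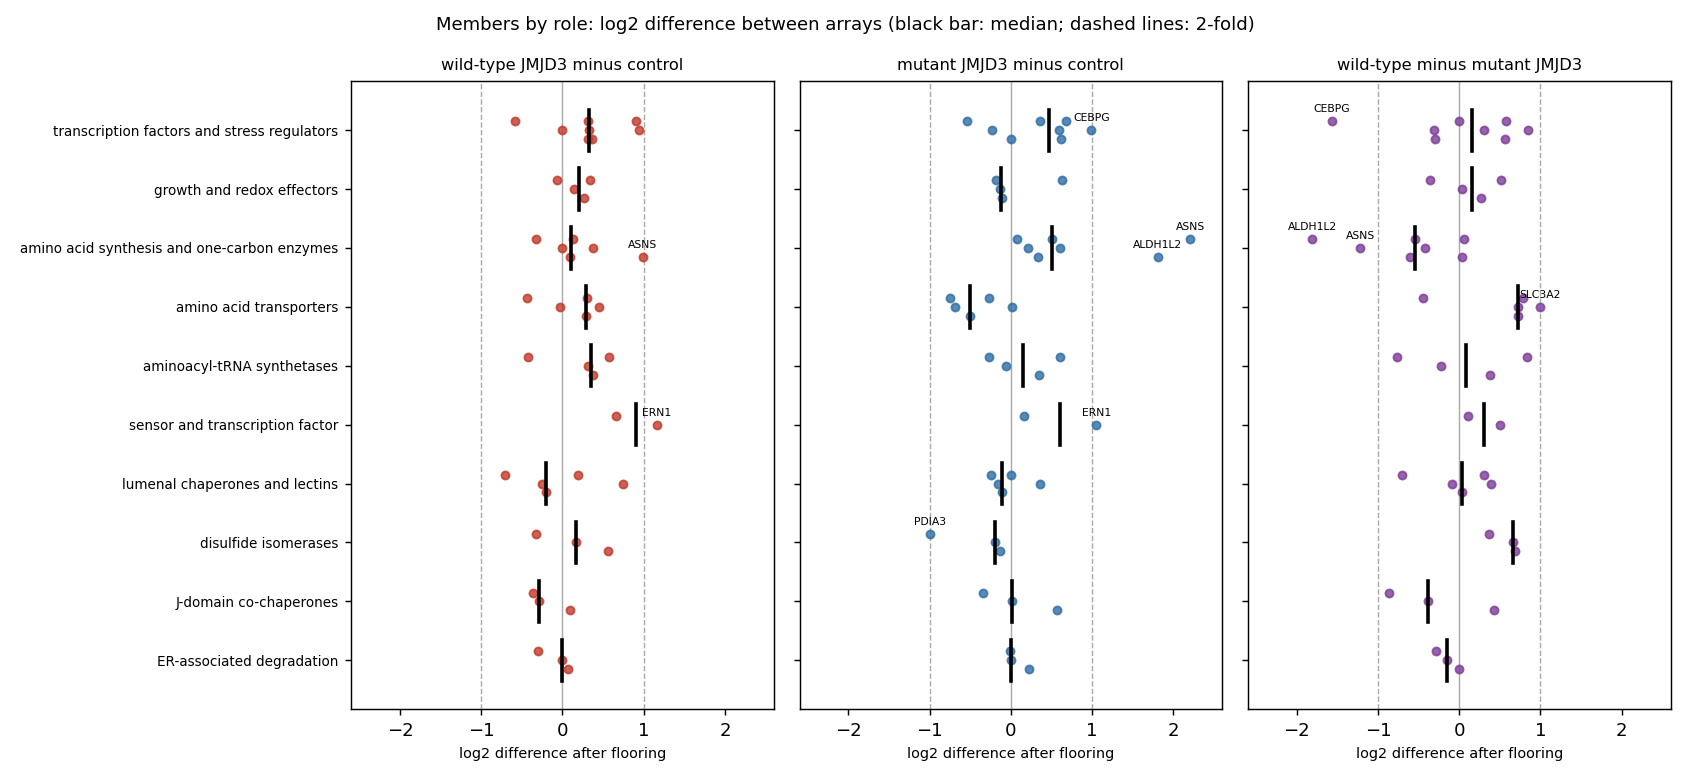
Log2 difference after flooring for each measured member (points) by role, for wild-type JMJD3 minus control, mutant JMJD3 minus control, and wild-type minus mutant JMJD3, with medians as black bars. The medians of enzymes and transporters lie on opposite sides of 0 for mutant minus control (0.51 and -0.50) and for wild-type minus mutant JMJD3 (-0.54 and 0.72).

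In the chaperone arm the sensor gene ERN1 was over 2-fold higher than control in both JMJD3 lines. Most of the folding machinery lay within 1.5-fold of control, apart from CALR and HSP90B1 with wild-type JMJD3 and PDIA3 with mutant JMJD3. With wild-type JMJD3, 1 of 16 genes was higher than control by 2-fold, against 0.953% of all genes, and 0 lower, against 1.31%. By 1.5-fold, 3 were higher (ERN1, CALR and XBP1) and 1 was lower (HSP90B1), against 7.15% and 9.08% of all genes. With mutant JMJD3, 1 was higher by 2-fold, against 2.98%, and 0 lower, against 0.535%. By 1.5-fold, 1 was higher (ERN1) and 1 was lower (PDIA3), against 9.51% and 3.38%. The median log2 difference from control was 0.04 in the wild-type JMJD3 line and -0.01 in the mutant line.

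ERN1, the kinase and endonuclease that splices XBP1 mRNA, read 7.39 with wild-type JMJD3, 7.28 with mutant JMJD3 and 6.23 in control. A second probe set had control lowest too (7.02, 7.18 and 6.23), and the remaining one lay under the floor. The folds over control were 2.24 with wild-type and 2.07 with mutant JMJD3. They were under 2-fold when an offset replaced the floor (0.83 and 0.74 on the log2 scale) and with the median over probe sets (0.79 and 0.95). With quantile normalization the fold for mutant JMJD3 was under 2 as well.

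XBP1, the factor that IRE1alpha activates by splicing, read 9.73 with wild-type JMJD3, 9.23 with mutant JMJD3 and 9.07 in control, a 1.58-fold difference for wild-type JMJD3. Its other probe set went the other way and read 7.53, 7.54 and 7.98. The deposited values do not tell spliced from unspliced XBP1.

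Of the lumenal chaperones, HSPA5, which encodes BiP, the main ER chaperone and a standard marker of the unfolded protein response, read 12.90 with wild-type JMJD3, 12.86 with mutant JMJD3 and 13.10 in control. Its other probe set was also highest in control (8.95, 9.23 and 9.69). HSP90B1, which encodes GRP94, read 8.99, 9.70 and 9.70 in the same order of lines. HSPA5 was thus below control by 1.15-fold in the wild-type JMJD3 line and by 1.18-fold in the mutant line, and HSP90B1 was 1.64-fold lower with wild-type JMJD3. The HSP90B1 reading came from a shared probe set (_x_at), as did its other one (6.43, 6.94 and 6.94). Its probe sets naming several genes were left out, so HSP90B1 was not measured without shared probe sets.

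The lectin chaperone calreticulin (CALR) read 10.99 with wild-type JMJD3, 10.60 with mutant JMJD3 and 10.24 in control, and its membrane-bound partner calnexin (CANX) read 12.74, 12.83 and 12.99. Over control CALR was 1.68-fold higher with wild-type and 1.28-fold higher with mutant JMJD3, and its other 2 probe sets kept that order of lines. CANX was highest in control at the chosen probe set, by at most 1.19-fold. Of its other probe sets over the floor, the dimmest had mutant JMJD3 highest (8.21 with wild-type JMJD3, 8.87 with mutant JMJD3 and 8.56 in control). The brighter ones had control highest (11.59, 11.59 and 11.76, and 9.61, 9.13 and 9.70). SDF2L1, part of an ER chaperone complex, read 9.60, 9.30 and 9.41 in the same order.

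The disulfide isomerases PDIA3, PDIA4 and PDIA6 shape disulfide bonds in new proteins. PDIA3 read 10.52 with wild-type JMJD3, 9.86 with mutant JMJD3 and 10.85 in control. PDIA4 read 11.29, 10.60 and 10.73, and PDIA6 read 12.76, 12.39 and 12.59 in that order. The mutant line was lowest for all 3, and wild-type exceeded mutant JMJD3 by 1.58-fold for PDIA3, 1.61-fold for PDIA4 and 1.29-fold for PDIA6. PDIA3 was 1.99-fold lower with mutant JMJD3 than in control at this probe set alone, as its second probe set read 8.26, 8.08 and 7.98 and its dimmest 7.59 in every line.

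Among the J-domain co-chaperones of BiP, DNAJB9 read 8.80 with wild-type JMJD3, 9.66 with mutant JMJD3 and 9.09 in control. DNAJB11 read 11.24, 10.81 and 11.15, and DNAJC3 read 9.42, 9.80 and 9.78 in the same order. They had no common order, and DNAJB9, a target of spliced XBP1, was 1.82-fold lower in the wild-type JMJD3 line than in the mutant line, lower as well in its other 2 probe sets.

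In ER-associated degradation, HERPUD1, a scaffold of the ubiquitin ligase complex, read 10.93 with wild-type JMJD3, 11.08 with mutant JMJD3 and 10.86 in control. SEL1L, the adaptor of that ligase, read 9.51, 9.80 and 9.81, and EDEM1, which trims mannose from misfolded glycoproteins, read 8.39 in every line. No difference exceeded 1.23-fold at the chosen probe sets. A dimmer SEL1L probe set stood apart (7.55 with wild-type JMJD3, 6.34 with mutant JMJD3 and 7.61 in control).

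**Figure D3:**
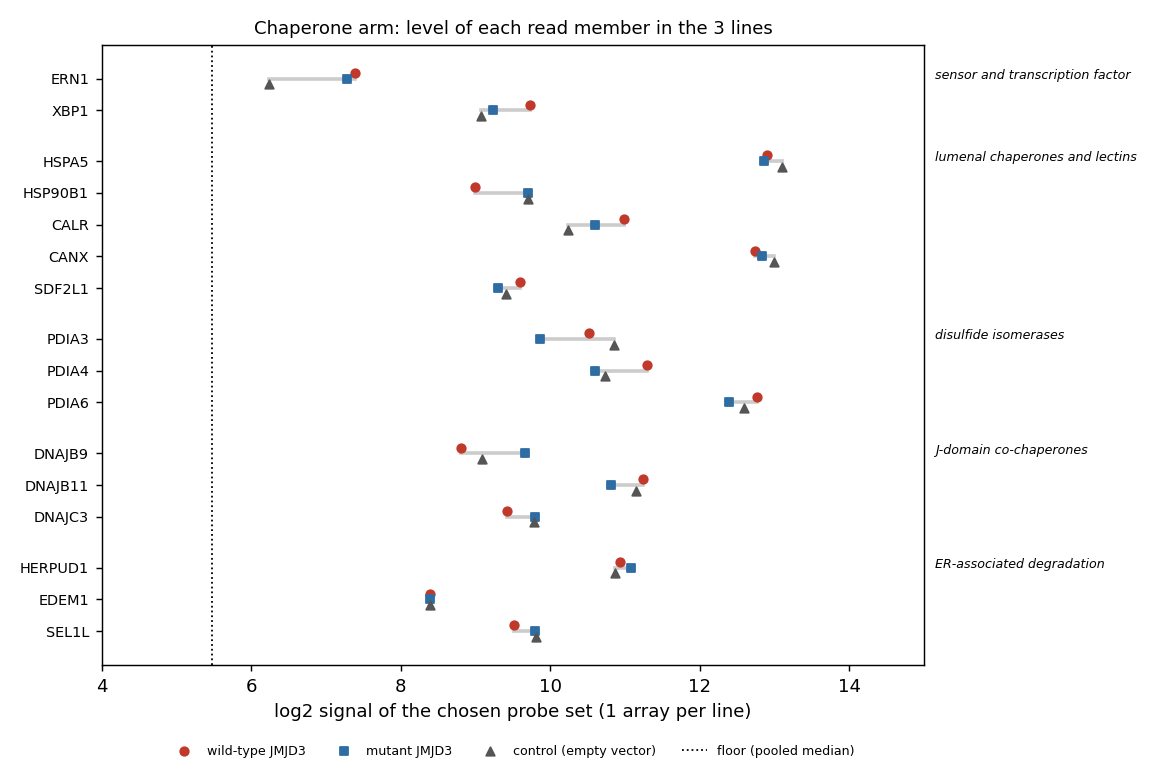
Log2 signal of the 16 chaperone arm genes read (rows, grouped by role) in the wild-type JMJD3, mutant JMJD3 and control arrays, with the floor at 5.48 dotted. ERN1 has control at 6.23 and both JMJD3 lines over 7, while HSPA5 lies within 0.24 over the 3 lines.

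Between the JMJD3 lines, 0 of 16 chaperone arm genes differed by 2-fold in either direction, against 2.61% and 6.2% of all genes. By 1.5-fold, 2 were higher with wild-type JMJD3 (PDIA3 and PDIA4), against 11.3% of all genes, and 2 were lower (DNAJB9 and HSP90B1), against 15.9%. The median was 0.07, and 0.21 when the probe sets of each gene were summarised by their median.

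Other probe sets of the same genes tell how far a reading depends on the probes. In the chaperone arm, 18 of 24 other probe sets went the way of the chosen one for wild-type JMJD3 against control. For mutant JMJD3 against control 14 of 23 did so, 4 read 0 and 5 went the opposite way, and for wild-type against mutant JMJD3 15 of 24 did so. In the ATF4 arm, 15 of 18 went the same way for wild-type JMJD3 against control and 15 of 18 for wild-type against mutant JMJD3. For mutant JMJD3 against control 11 of 18 did so, 3 read 0 and 4 went the opposite way. These counts are a description, since probe sets of a gene share its transcript.

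**Figure D4:**
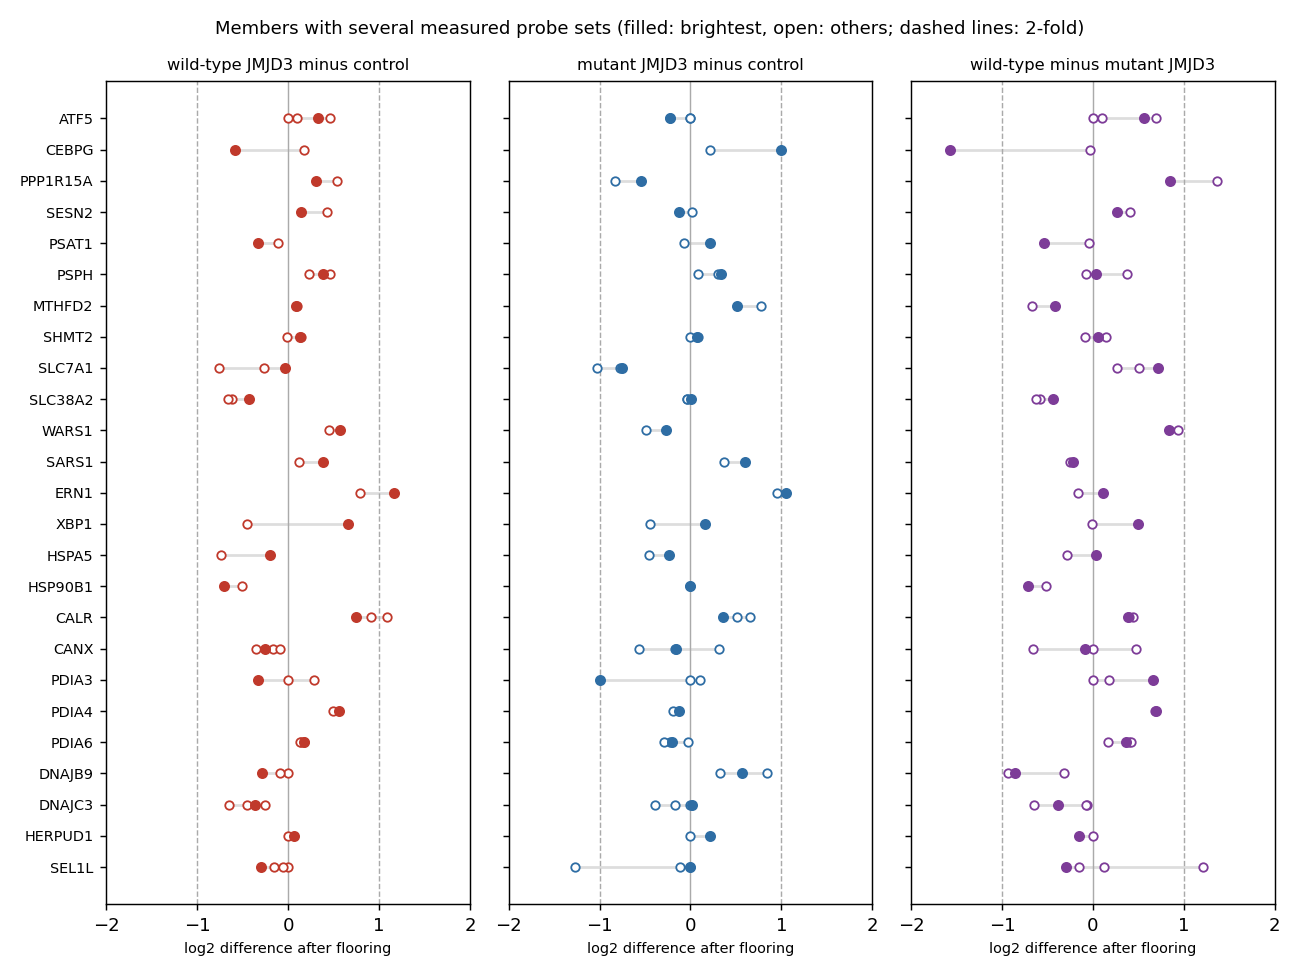
Log2 difference after flooring for every measured probe set of the 25 members with several, for wild-type JMJD3 minus control, mutant JMJD3 minus control, and wild-type minus mutant JMJD3; filled points are the brightest probe sets. Those of CALR, PDIA4 and WARS1 keep 1 direction in each panel, those of ERN1 do so against control but read 0.11 and -0.16 for wild-type minus mutant JMJD3, and those of XBP1 lie on both sides of 0 in each panel against control.

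The other genes of these pathways were read from 4 lists of 76 genes, 70 of which were read. Of 12 eIF2alpha kinases and upstream sensors, 1 was higher with mutant JMJD3 than in control by 2-fold, against 2.98% of all genes. It was ATF6, the membrane-bound transcription factor of the chaperone response. It read 8.26 with wild-type JMJD3, 9.78 with mutant JMJD3 and 8.64 in control. Of its other 3 probe sets, 2 also had the mutant highest (6.53, 7.59 and 6.54, and 7.09, 7.81 and 7.36), but the next in brightness had it lowest (8.76, 8.29 and 8.66). With the median over probe sets the mutant exceeded control by 0.05 on the log2 scale.

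Of 16 other ATF4 targets measured, 1 was 2-fold or more over control in the wild-type JMJD3 line, against 0.953% of all genes, and 1 in the mutant line, against 2.98%. In either line 0 were lower, against 1.31% for wild-type and 0.535% for mutant JMJD3. JDP2, a basic leucine zipper repressor, read 9.20 with wild-type JMJD3, 8.50 with mutant JMJD3 and 8.15 in control. CBS, the enzyme that opens transsulfuration from homocysteine to cysteine, read 7.37, 7.84 and 6.59 in that order, 2.38-fold over control with mutant JMJD3. Both were lowest in control. STC2, a secreted glycoprotein, read 7.09 with wild-type JMJD3, 8.12 with mutant JMJD3 and 7.40 in control. The level was 2.04-fold lower in the wild-type than in the mutant line, which its other probe set did not have (6.43, 6.21 and 6.19). With wild-type against mutant JMJD3, 1 of the 16 was lower by 2-fold, against 6.2% of all genes, and 0 were higher, against 2.61%. The list's median log2 difference from control was 0.27 in the wild-type JMJD3 line and 0.03 in the mutant line. The split of the members was not seen in this list. Its measured enzymes differed from control with mutant JMJD3 by 1.25 (CBS), 0.53 (CTH), 0.00 (SHMT1), -0.03 (PYCR1), -0.13 (GOT1) and -0.20 (ALDH18A1). Its measured carriers differed by 0.77 (SLC43A1), 0.32 (SLC7A11) and -0.06 (SLC38A1). For wild-type against mutant JMJD3 these carriers read -0.51, -0.98 and -0.59. The enzymes read 0.80 (GOT1), 0.70 (ALDH18A1), 0.46 (CTH), 0.34 (PYCR1), 0.05 (SHMT1) and -0.47 (CBS).

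Of 13 other cytosolic tRNA synthetases measured, 0 differed by 2-fold in any comparison. Over all genes, 0.953% were higher and 1.31% lower for wild-type JMJD3 against control, and 2.98% and 0.535% for mutant JMJD3 against control. For wild-type against mutant JMJD3 these shares were 2.61% and 6.2%. Their medians were -0.21 for wild-type JMJD3 against control, -0.01 for mutant JMJD3 against control and -0.34 for wild-type against mutant JMJD3. Of 25 other chaperone and degradation genes measured, 0 were higher and 1 lower than control by 2-fold in the wild-type JMJD3 line, against 0.953% and 1.31% of all genes. In the mutant line 0 were in either direction, against 2.98% higher and 0.535% lower. The lower one was FKBP14, a prolyl isomerase of the ER, which read 7.84 with wild-type JMJD3, 9.60 with mutant JMJD3 and 8.94 in control. Its other probe sets had wild-type JMJD3 lowest as well (7.64, 8.71 and 8.69 for one, and 5.16, 7.35 and 6.77 for the other).

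Between the JMJD3 lines, 2 of these 25 genes were lower by 2-fold with wild-type JMJD3, against 6.2% of all genes, and 1 was higher, against 2.61%. FKBP14 was 3.39-fold lower in the wild-type line. EDEM3, a mannosidase of glycoprotein degradation, was 2.13-fold lower (7.28 with wild-type JMJD3, 8.37 with mutant JMJD3 and 8.24 in control). DERL2, a channel subunit of ER-associated degradation, was 2.55-fold higher in the wild-type line (11.09, 9.74 and 10.65 in that order), though its other probe set read 7.80, 7.79 and 7.80. The median of the 25 genes was 0.17, with 15 above 0 and 7 below. Over all 12829 measured genes the median was 0.00, with 6379 above 0 and 5196 below.

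**Figure D5:**
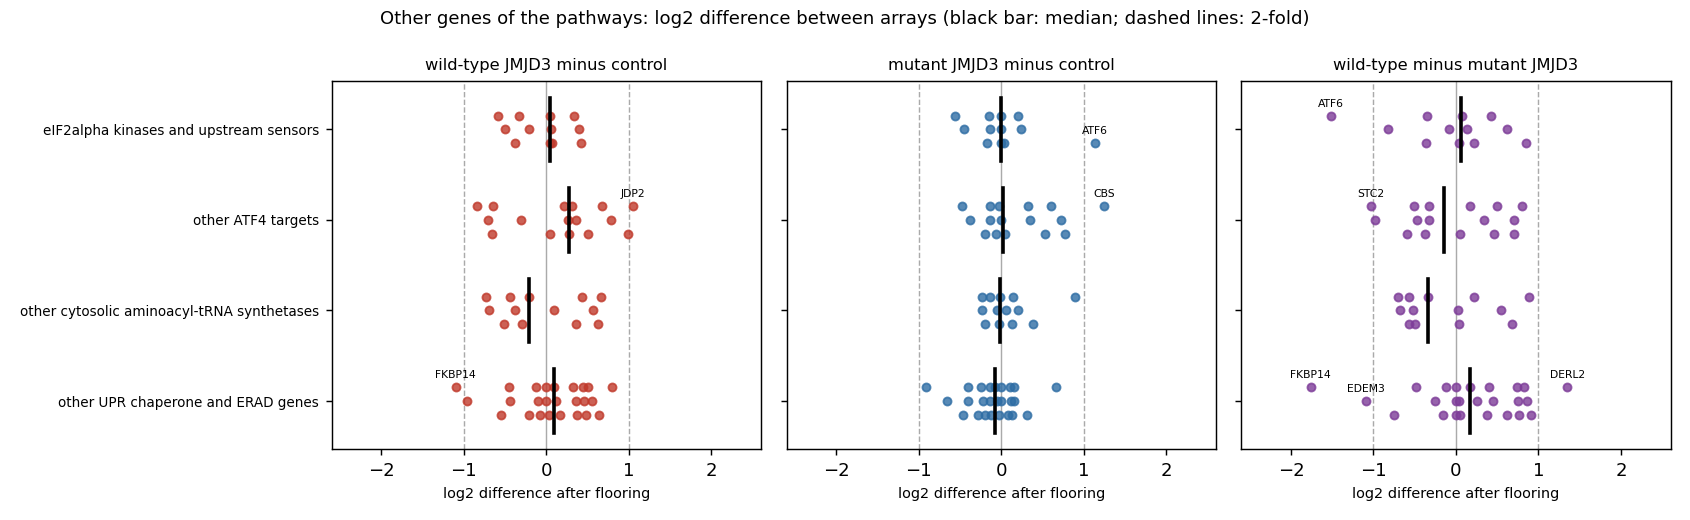
Log2 difference after flooring for each measured gene of the 4 other lists (points), for wild-type JMJD3 minus control, mutant JMJD3 minus control, and wild-type minus mutant JMJD3, with medians as black bars and genes at 2-fold or more named. Medians from control run between -0.21 and 0.27, and the named points are single genes of each list.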

How the data were processed

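Per the labels, total RNA of each line was biotin-labelled and hybridised to 1 Affymetrix array. MAS5, an algorithm that turns Affymetrix probe intensities into signals, is named in the submitters' processing notes without settings. The deposited values are on a log2 scale, judged from their range of 2.42 to 14.94, and are written to 2 decimals. How arrays were scaled to each other is not stated in the labels, and the sorted columns differ by at most 0.14.

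Of 54613 probe sets, 41091 carried a single gene symbol and were used, 1801 carried more than one and 11721 were unnamed here. The gene identifiers of 41037 matched the RefSeq table of GRCh38.p14. Of the 44 members read, 23 rested on probe sets ending in _s_at or _x_at, whose probes are shared, and 28 had several probe sets. HSP90B1 had further probe sets naming several genes, which were left out. Array control probe sets for RNA quality are not analysed here.

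Genes were counted at 2-fold and at 1.5-fold without any test. The members and lists were chosen with earlier results of these data known. All members are given, and other genes are named from 2-fold, up to 4 per list and comparison. Measured enzymes and carriers among the other ATF4 targets are given as well. Promoters were printed for up to 6 members with an element and a difference of 1.5-fold, with 60 bases on each side where the window allowed, or 10 where another start lay within 1000 bases upstream. The alternatives were 2 other scalings, floors at the 40th and 60th percentile, adding the pooled median signal as an offset, taking the median of a gene's probe sets, and no shared probe sets. The gene step was tested on simulated data. The scripts ran in Python 3.11.15 (pandas 2.3.3, numpy 2.4.6), with figures from matplotlib 3.10.9.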

Additional observations from a re-analysis of the deposited data

How the results depend on the processing

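Of the counts and medians of both arms, 182 alternative values stayed close to those reported, while 28 moved (counts within 1.5 times, medians within 0.1). Arm medians near 0 changed sign in 2 cases, to -0.07 for the ATF4 arm, wild-type against mutant JMJD3, without shared probe sets, and to 0.01 for the chaperone arm, mutant JMJD3 against control, with the arrays shifted to one median. With the arrays shifted to one median, ATF4 arm members higher by 2-fold were 1 for wild-type JMJD3 against control and 1 for wild-type against mutant JMJD3. With quantile normalization, chaperone arm members higher by 2-fold with mutant JMJD3 than in control were 0. With the offset they were 0 in either JMJD3 line against control, and with the median over probe sets again 0 in either line, with chaperone arm medians of -0.12 for mutant JMJD3 against control and 0.21 for wild-type against mutant JMJD3, where 1 was lower by 1.5-fold. In the ATF4 arm that setting gave 1 higher and 1 lower by 1.5-fold for wild-type JMJD3 against control, 1 higher by 2-fold for mutant JMJD3 against control, and 1 higher and 0 lower by 2-fold for wild-type against mutant JMJD3. Without shared probe sets fewer genes were measured. The ATF4 arm then had 1 higher and 1 lower by 1.5-fold for wild-type JMJD3 against control. For mutant JMJD3 against control it had a median of 0.36, 1 higher and 1 lower by 2-fold and 1 lower by 1.5-fold. For wild-type against mutant JMJD3 it had a median of -0.07, with 3 higher and 3 lower by 1.5-fold. The chaperone arm had 2 higher by 2-fold and 0 lower by 1.5-fold for wild-type JMJD3 against control, 2 higher by 1.5-fold for mutant JMJD3 against control, and 1 lower by 1.5-fold for wild-type against mutant JMJD3. Beyond what a setting's construction shows, the cause was not tested. ASNS with mutant JMJD3 against control ran between 1.30 and 2.22 and was not measured without shared probe sets. PDIA3 there turned to 0.10 with the median over probe sets. Over all genes the offset gave 70 higher and 71 lower by 2-fold for wild-type JMJD3 against control, 202 and 41 for mutant JMJD3 against control, and 208 and 480 for wild-type against mutant JMJD3. The median over probe sets gave 71 higher, 241 higher and 501 lower in these comparisons, and leaving out shared probe sets 79 higher in the first. No paired analysis was possible because each line had 1 array. Signal near the floor limits ALDH1L2, whose log2 difference between mutant JMJD3 and control ran between 1.12 and 1.92 and was not measured with the median over probe sets, and with no replicate the spread between cultures of a line is unknown.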

Other observations

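Among the other genes of the pathways, KLHL24 and EIF2S1 were chosen after their values were seen because their probe sets disagree. KLHL24, a listed ATF4 target, was read by a shared probe set whose log2 difference from control was -0.84 in the wild-type JMJD3 line and -0.47 in the mutant line. Its second brightest read 6.49 with wild-type JMJD3, 9.15 with mutant JMJD3 and 6.97 in control, a log2 difference of 2.18 between mutant JMJD3 and control. A further 2 gave 0.98 and 1.16 for mutant JMJD3 against control, so that the brightest had control highest and these 3 had mutant JMJD3 highest. EIF2S1, which encodes eIF2alpha itself, read 11.34 with wild-type JMJD3, 10.72 with mutant JMJD3 and 11.28 in control by its brightest probe set, with the mutant lowest. Its other 2 read 9.32, 10.44 and 10.03, and 9.46, 10.69 and 10.37 in that order, with the mutant highest in both.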
